A study of Mus musculus with 15 samples.

Results

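The genes described here encode the proteins of the interstitial extracellular matrix: every collagen chain other than the type IV chains, and a set of elastic fibre proteins, proteoglycans and matricellular glycoproteins. They were chosen by name alone, as single gene symbols of the form Col, number, a, number (Col4a left out) or 1 of Fn1, Eln, Fbn1, Fbn2, Fbln1, Fbln2, Fbln5, Lum, Dcn, Bgn, Vcan, Sparc, Thbs1, Thbs2, Fstl1 and Abi3bp. Of the 19938 genes with a probe set of their own, 53 met this rule, 38 of them collagens and 15 others. Of these, 46 were bright enough to be tested, with log2 values over 6.86 (the median of the table) on 3 or more arrays, 33 collagens and 13 others. Col21a1 and Fbn1 were not analysed here.

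Expression was profiled on 1-colour arrays in kidney cells that were sorted for green fluorescence from Tg(Crym-EGFP)82Gsat pups of strain CD-1 on postnatal days P0, P1, P2, P3 and P4, with 3 pools of about 4 kidneys for each day and 15 in all. All groups share this transgene, in which Crym sequence on a bacterial artificial chromosome drives EGFP, the fostering of the pups to CD-1 females, trypsin dissociation and the sort, and no group received any other treatment. Sex is unknown. The label is cap mesenchyme for the 12 pools from P0 through P3 and renal vesicle for the 3 from P4, although the design text calls the sorted cells cap mesenchyme on every day, so that label and age cannot be told apart at P4. The labels do not say that pools came from separate litters, and p-values therefore measure only the spread between these pools.

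Cap mesenchyme holds the nephron progenitors, which surround the tips of the ureteric bud and turn into the epithelial renal vesicle, the first stage of a nephron. The interstitial matrix is laid down mostly by stromal cells around them. Fibrillar collagens form its tensile fibres, FACIT collagens sit on the fibre surface, collagen VI forms beaded filaments, fibrillins and fibulins build microfibrils and elastic fibres, proteoglycans bind water and growth factors, and matricellular proteins such as thrombospondins alter how cells respond to the matrix. Conversion of a mesenchymal cell to an epithelial one is known for the exchange of interstitial matrix for a basement membrane of laminins and type IV collagen.

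Differences were tested with limma, a linear model moderated across genes, and a gene passed, or was called, at a p under 0.05 after adjustment over all 11885 genes tested. The differences that passed lay among the non-collagen members. Fstl1 was 2.28-fold higher at P4 than on the earlier days together, Thbs1 was 3.43-fold lower at P4 than at P0, Vcan was lower at P4, and Dcn fell from P0 to P3. No collagen passed the test in any comparison of this fit, which has no block. With the replicate number as a block further members passed, Col18a1 the only collagen among them. Col18a1 also passed in replicates 2 and 3 alone, without a block.

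The labels were checked against marker lists, whose values are means of the deposited log2 values. The cap mesenchyme list (8 of 8 genes bright enough to test) had a mean of 9.54 to 10.39 in the pools of P0 to P2, 8.89 to 9.11 at P3 and 7.59 to 7.74 at P4. The renal vesicle list (8 of 8) ran the other way, from 7.14 to 7.69 at P0 and P1 to 8.91 to 9.60 at P4. Crym itself, whose sequence drives the sorted label, was 10.24 to 12.15 in the P0 to P3 pools and 7.68 to 7.98 at P4. The stroma and interstitium list (9 of 10, without Tbx18) was 8.71 to 8.88 at P0, 8.04 to 8.51 at P3 and 8.21 to 8.30 at P4, so that genes of interstitial cells were measured in every pool. In bulk samples like these, fewer cells of a type and less RNA per cell cannot be told apart. The first replicates of all 5 days stood apart from the other 10 pools, with an interquartile range of 2.14 to 2.27 over all probe sets against 2.52 to 2.77.

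**Figure D1:**
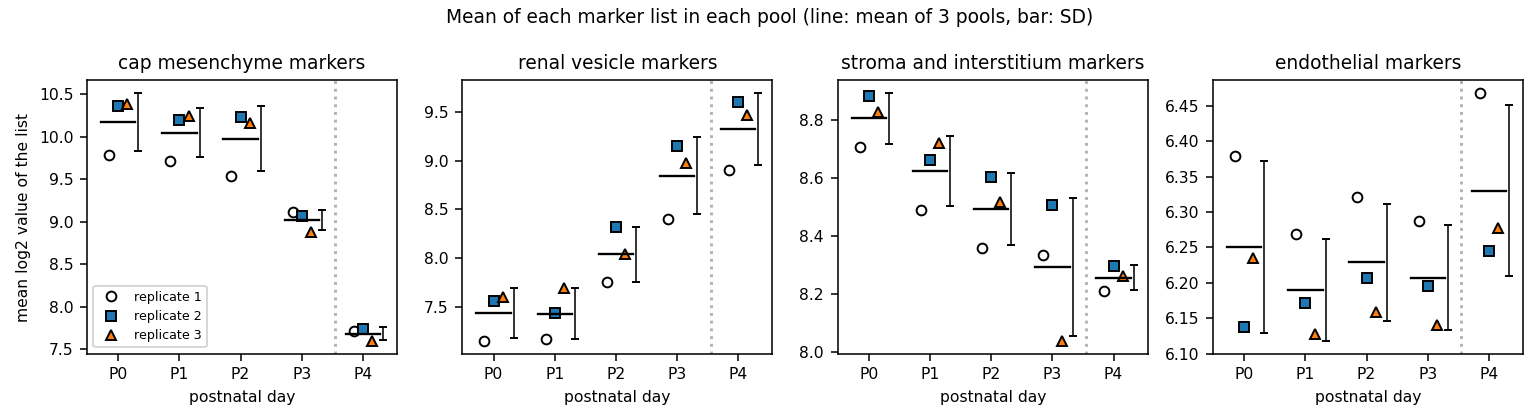
Mean deposited log2 value of 4 marker lists (vertical axis, scaled for each panel) in each of 15 pools by postnatal day (horizontal axis), with symbols for replicates, lines for day means and bars for the SD of 3 pools. The cap mesenchyme list ended at 7.59 to 7.74 and the renal vesicle list at 8.91 to 9.60 at P4, the stroma list was highest at P0, and the endothelial list stayed between 6.13 and 6.47.

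For Fstl1 and Vcan, the members with an upward and a downward difference at P4 for which the RefSeq table holds a promoter, the 250 bases before the annotated start are shown as the regulatory sequence beside the measurements. They are given 5′ to 3′ on the gene's strand in build GRCm38.p6, at chr16:37776805-37777054 (plus strand, 68.0% G or C) for Fstl1 and at chr13:89742513-89742762 (minus strand, 62.4% G or C) for Vcan. Capitals mark matches, on either strand, to a GC box (GGGCGG) or a CCAAT box (CCAAT).
Fstl1 promoter: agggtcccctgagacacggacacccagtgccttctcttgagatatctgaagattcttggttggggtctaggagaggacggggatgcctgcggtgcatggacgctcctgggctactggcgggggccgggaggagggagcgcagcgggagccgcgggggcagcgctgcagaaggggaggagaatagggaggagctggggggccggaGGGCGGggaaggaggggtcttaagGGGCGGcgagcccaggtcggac
Vcan promoter: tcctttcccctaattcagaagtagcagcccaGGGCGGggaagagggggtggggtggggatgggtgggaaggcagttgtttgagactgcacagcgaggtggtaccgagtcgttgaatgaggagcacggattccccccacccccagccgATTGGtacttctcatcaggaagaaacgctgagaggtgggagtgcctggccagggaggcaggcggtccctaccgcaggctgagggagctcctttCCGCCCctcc
Each window held 2 GC boxes, the Vcan window also held 1 CCAAT box, and neither held a TATA box (TATAAA). Of the 53 members, 38 had 43 windows in the table, and a GC box stood in 58.1% of these against 32.7% of all 32851 windows of the same length. A CCAAT box stood in 30.2% against 33.8%, and a TATA box in 14% against 12.4%. These matches describe letters only and were not tested as sites. Thbs1, Dcn, Fn1 and Abi3bp have no entry in the table.

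Fstl1 encodes a secreted glycoprotein of the SPARC family that is known to bind BMP ligands. Its deposited log2 values were 8.42, 8.81 and 8.49 at P0, 8.31, 8.42 and 8.54 at P1, 8.0, 8.45 and 8.33 at P2, 8.47, 8.93 and 8.57 at P3, and 9.42, 9.83 and 9.75 at P4. All 3 P4 pools lay above all 12 earlier pools, whose highest value was 8.93. The earlier days overlapped except that every P3 pool lay above every P2 pool. P4 was 2.13-fold above P0, a log2 difference of 1.09 (SE 0.17, 95% interval 0.73 to 1.45, limma adjusted p = 0.000931). Relative to the averaged P0 to P3 days it was 2.28-fold higher (log2 difference 1.19, adjusted p = 4.34e-05), and against P3 alone 2.01-fold higher (log2 difference 1.01, adjusted p = 0.00505). The slope of Fstl1 over P0 to P3 was 0.01 per day on the log2 scale (95% interval -0.11 to 0.12, adjusted p = 0.986). P4 also lay 1.17 above the value at day 4 of the line through the P0 to P3 means (adjusted p = 0.00509), a comparison added after the data were seen. All these comparisons share the P4 pools, so they are not separate pieces of evidence.

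Thbs1 encodes thrombospondin 1, a matricellular protein known for releasing TGF-beta from its latent form and for inhibiting blood vessel growth. Its log2 values were 8.64, 9.42 and 9.34 at P0, 8.49, 8.91 and 9.28 at P1, 8.19, 8.87 and 8.73 at P2, 7.78, 8.04 and 8.13 at P3, and 7.36, 7.26 and 7.45 at P4. Every P3 pool lay below every pool of P0 to P2, every P4 pool lay below every P3 pool, and P0, P1 and P2 overlapped. P4 was 3.43-fold below P0 (log2 difference -1.78, SE 0.24, 95% interval -2.28 to -1.27, limma adjusted p = 0.000272) and 2.45-fold below the P0 to P3 mean (log2 difference -1.30, adjusted p = 0.000477). Under the cap mesenchyme label alone it fell by 0.38 per day on the log2 scale (SE 0.08, 95% interval -0.54 to -0.21, adjusted p = 0.0133). That slope lost its call without P0 replicate 2 or P0 replicate 3, at an adjusted p of up to 0.0674. The step from P3 to P4 was -0.63 (95% interval -1.13 to -0.12) and did not pass (adjusted p = 0.421), while with the replicate number as a block it did (adjusted p = 0.0307). P4 minus the P0 to P3 line was -0.36, with a 95% interval of -0.93 to 0.21.

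Thbs2, which encodes the related thrombospondin 2, had values of 6.46 to 7.06 and was too dim to be tested. The mean of the cap mesenchyme list was also lowest at P3 and P4, and its part in the Thbs1 result was not tested.

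Fn1 encodes fibronectin, the adhesive glycoprotein on which other matrix proteins assemble. Its log2 values were 8.85, 9.28 and 9.02 at P0, 7.91, 8.77 and 9.28 at P1, 7.91, 8.87 and 8.79 at P2, 8.68, 9.64 and 9.33 at P3, and 9.24, 10.08 and 9.75 at P4. The highest 2 values were P4 pools, the third P4 pool lay among the earlier ones, and the first replicate was the lowest of its day on every day. P4 minus P0 was 0.64 on the log2 scale (95% interval -0.12 to 1.39, limma adjusted p = 0.481), and with the replicate block the same difference passed (adjusted p = 0.0270), in a fit that called 11.1% of all genes. Against the P0 to P3 mean the difference was 0.83 (95% interval 0.23 to 1.42, adjusted p = 0.121). In replicates 2 and 3 alone, without a block, the difference from the P0 to P3 mean passed (adjusted p = 0.0128).

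Sparc encodes osteonectin, a collagen-binding matricellular protein. Its values at P0 to P3 ran from 11.47 to 12.05, and the P4 pools had 11.33, 11.75 and 11.68, of which 1 lay below all earlier pools and the others lay among them. P4 minus P0 was -0.27 (95% interval -0.65 to 0.10, limma adjusted p = 0.586).

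Abi3bp encodes a secreted matrix protein named for its binding to the Abi3 adaptor. Its log2 values were 6.51, 6.32 and 6.21 at P0, 7.52, 7.45 and 7.55 at P1, 6.68, 6.18 and 6.49 at P2, 6.55, 6.67 and 7.25 at P3, and 6.42, 6.61 and 6.17 at P4. The 3 P1 pools were the highest of all 15, and of the others only P3 replicate 3 exceeded 7. Abi3bp passed the test of any difference among the 5 days (limma adjusted p = 0.00371). It entered that test through 4 pools, 3 of them from P1, so it was tested only because of its P1 level, and the call adds nothing to that level. P4 minus P0 was 0.05 (95% interval -0.34 to 0.45).

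**Figure D2:**
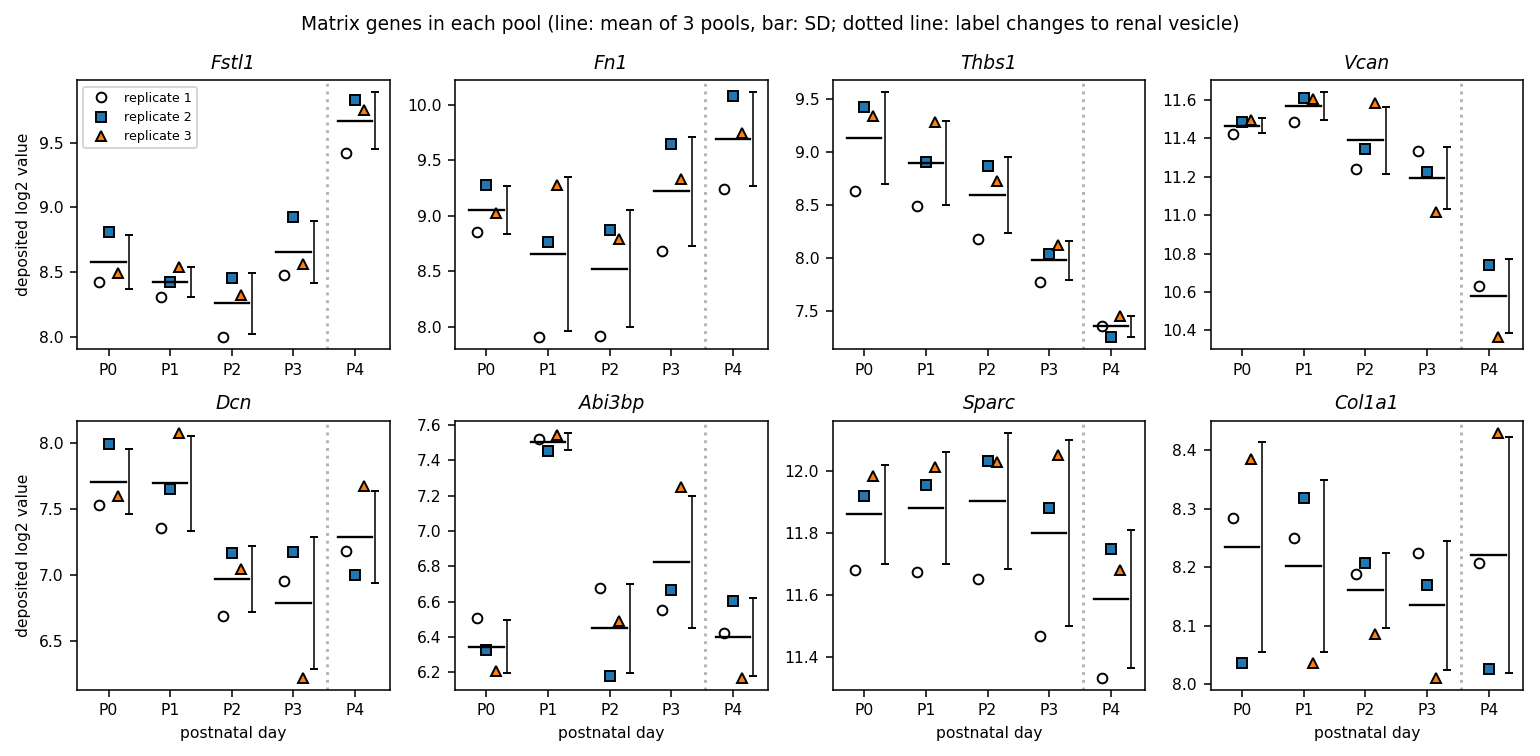
Deposited log2 values (vertical axis, scaled for each panel) of 8 matrix genes in each of 15 pools by postnatal day (horizontal axis), with symbols for replicates, lines for day means, bars for the SD of 3 pools and a dotted line where the label changes to renal vesicle. Fstl1 rose at P4 to 9.42 to 9.83, Thbs1 fell to 7.26 to 7.45 and Vcan to 10.36 to 10.74, Abi3bp was at 7.45 to 7.55 at P1, and the Col1a1 panel spans only 8.01 to 8.43.

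Among the proteoglycans, Vcan encodes versican, a large chondroitin sulfate proteoglycan that binds hyaluronan. Its log2 values were 11.42, 11.48 and 11.49 at P0, 11.48, 11.61 and 11.61 at P1, 11.24, 11.35 and 11.58 at P2, 11.34, 11.23 and 11.02 at P3, and 10.63, 10.74 and 10.36 at P4. All 3 P4 pools lay below all 12 earlier pools, and the earlier days overlapped except that every P3 pool lay below every P0 and P1 pool. P4 was 1.85-fold below P0 (log2 difference -0.89, SE 0.13, 95% interval -1.17 to -0.61, limma adjusted p = 0.000648) and 1.77-fold below the P0 to P3 mean (log2 difference -0.83, adjusted p = 0.000132). The step from P3 to P4 was -0.62 (adjusted p = 0.0287), and it lost its call without P3 replicate 1, P3 replicate 2, P4 replicate 1 or P4 replicate 3, at an adjusted p of up to 0.165. The slope over P0 to P3 was -0.10 per day (95% interval -0.19 to -0.01, adjusted p = 0.314).

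Dcn encodes decorin, a small leucine-rich proteoglycan that coats collagen fibrils and marks interstitial fibroblasts. Its log2 values were 7.54, 7.99 and 7.60 at P0, 7.36, 7.65 and 8.08 at P1, 6.69, 7.17 and 7.05 at P2, 6.96, 7.18 and 6.22 at P3, and 7.18, 7.0 and 7.68 at P4. All pools of P2 and P3 lay below all pools of P0 and P1, and the P4 pools reached into both ranges. Dcn fell by 0.35 per day over P0 to P3 on the log2 scale (SE 0.08, 95% interval -0.52 to -0.17, limma adjusted p = 0.0313). This call was lost without any of the P0 replicates, P1 replicate 2 or P3 replicate 3, at an adjusted p of up to 0.127. P4 minus P0 was -0.42 (95% interval -0.97 to 0.13, adjusted p = 0.560), and P4 minus the P0 to P3 line was 0.87 (95% interval 0.25 to 1.49, adjusted p = 0.312).

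The pool means of the stroma and interstitium list were 8.71 to 8.88 at P0, 8.49 to 8.72 at P1, 8.36 to 8.6 at P2, 8.04 to 8.51 at P3 and 8.21 to 8.30 at P4. The day means of the list and of Dcn were both lower at P2 and P3 than at P0. From P3 to P4 the list went from 8.29 to 8.26 and Dcn from 6.79 to 7.29. The lowest pool of the list was P3 replicate 3, at 8.04. Of the 10 genes, 7 had a lower mean at P3 than at P0, while Pdgfrb, Tbx18 and Aldh1a2 were not lower. The share of all genes with a lower mean at P3 was not computed, so this count has nothing to be read against. Foxd1, the transcription factor of the stromal progenitors, was 9.62 to 9.89 at P0 and 8.12 to 8.46 at P3, and Pdgfra was 7.91 to 8.34 at P0 and 6.58 to 7.64 at P3. P3 replicate 3 held the lowest value of Dcn, of Pdgfra and of Penk, another gene of interstitial cells. The part of interstitial cells in the Dcn slope was not tested. Bgn, which encodes the related biglycan, had values of 6.75 to 7.91 and no day stood apart, with a P4 minus P0 difference of -0.19. Lum, which encodes lumican, was measured at 4.22 to 4.89 and was too dim to be tested.

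The 5 elastic fibre and microfibril genes tested gave no call in any comparison of limma without a block, while 1 of them (Fbln2) had an unadjusted p under 0.05 in P4 versus P0. Their P4 minus P0 differences ran from -0.04 for Fbln5 to 0.34 for Fbln2, with a median of 0.24. Fbln2 encodes fibulin 2, which links basement membranes to elastic fibres. Its P4 pools had 7.29, 7.28 and 7.27, just above the 12 earlier pools at 6.83 to 7.22, and the difference from P0 did not pass (95% interval 0.07 to 0.60, adjusted p = 0.176). Fbn2 encodes fibrillin 2, the microfibril protein typical of embryonic tissue. It was 9.64 to 9.86 at P0 and 9.81 to 10.24 at P4, the days overlapped, and the difference was 0.21 (95% interval -0.23 to 0.66). Fbln1, which encodes fibulin 1, ranged from 7.90 to 9.28 over the 15 pools with a P4 minus P0 difference of 0.28 (95% interval -0.27 to 0.84). With the replicate block Fbln1 passed limma's test of any difference among days (adjusted p = 0.0104), where 12.5% of all genes did. Fbln5 ranged from 6.93 to 7.98. Eln, which encodes elastin itself, was 7.14 to 7.72 in the earlier pools and 7.49 to 7.89 at P4.

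The deposited values of the collagens were steady across the 5 days. The means of the 33 tested were 6.79 to 8.19, beside a table median of 6.86. Whether each stood above background was not tested. Col1a1, which encodes the main chain of type I collagen, had log2 values of 8.28, 8.04 and 8.39 at P0, 8.25, 8.32 and 8.04 at P1, 8.19, 8.21 and 8.09 at P2, 8.22, 8.17 and 8.01 at P3, and 8.21, 8.03 and 8.43 at P4. The days overlapped throughout, and the P4 pools alone held values near both ends of the range. Of the 33 collagens tested, 0 passed limma's test of any difference among the 5 days, where 5.37% of all 11885 genes tested did, and 0 had an unadjusted p under 0.05. In P4 versus P0, 0 of 33 passed against 5.63% of all genes, and 1 had an unadjusted p under 0.05. In the slope over P0 to P3 it was 0 of 33 against 3.13%, and 0 by the unadjusted p. P4 against the P0 to P3 mean, against P3 and against the P0 to P3 line also gave 0, with 1, 1 and 0 by the unadjusted p. The 95% interval of P4 minus P0 lay within 1 log2 unit of 0 for all 33 collagens, the widest bounds being -0.75 and 0.74. A 2-fold change in the deposited value was therefore outside each interval. A change in RNA can be understated in values that hold background, and this was not tested.

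Over the 33 collagens the median P4 minus P0 difference was 0.00, with 17 above 0, and the estimates ran from -0.29 for Col12a1 to 0.42 for Col18a1. Over all genes tested the median was -0.0004. By role, the medians were -0.04 for the 11 fibrillar collagens, 0.04 for the 8 FACIT collagens, -0.01 for the 6 chains of collagens VI and VII, 0.13 for the 4 transmembrane collagens and 0.11 for collagens XV, XVIII and XXVI, and Col10a1, the only short-chain collagen tested, was at -0.09.

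**Figure D3:**
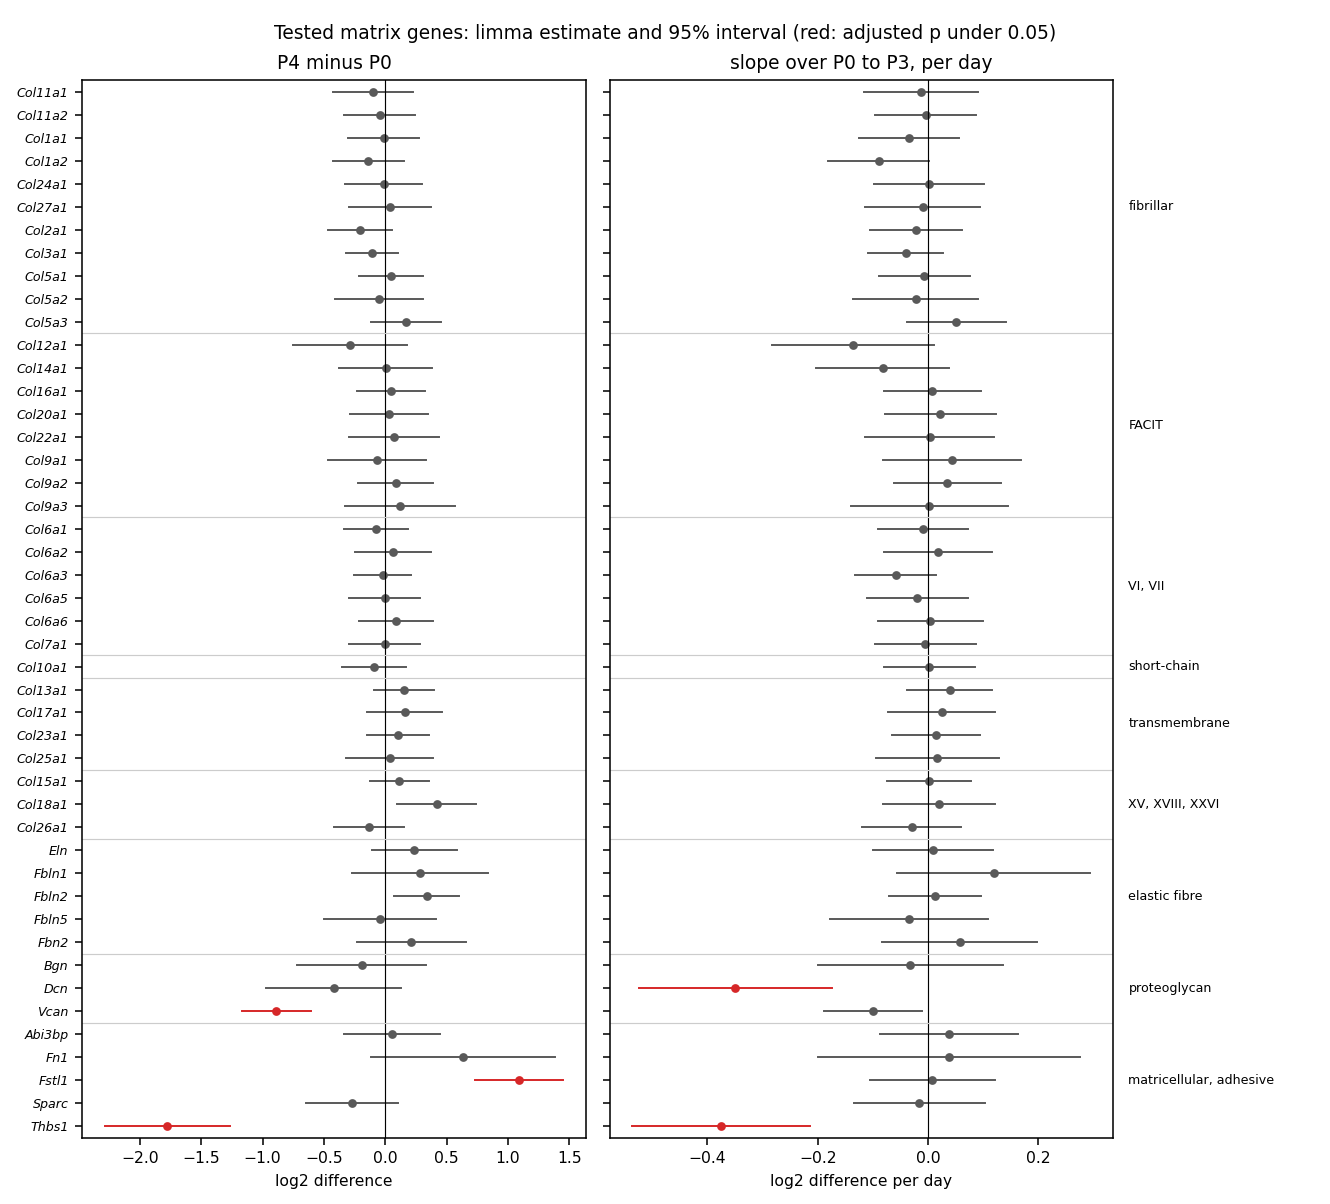
Estimates (points) and 95% intervals (lines) from limma for the 46 matrix genes tested, as P4 minus P0 in log2 units on the left and as slope over P0 to P3 in log2 units per day on the right, with genes on the vertical axis grouped by role. Red marks an adjusted p under 0.05, which holds for Fstl1, Thbs1 and Vcan on the left and for Thbs1 and Dcn on the right, and the 33 collagen intervals on the left lie between -0.75 and 0.74.

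The range of a collagen over all 15 pools was 0.33 to 1.29 log2 units with a median of 0.55, and it was under 1 for 32 of the 33. The exception was Col12a1, a FACIT collagen of dense connective tissue, which ran from 7.03 in P3 replicate 3 to 8.31 in P1 replicate 3 and whose day means lay between 7.51 and 7.96. Among the other collagens named as the member with the highest mean of its role, Col9a3 (FACIT) spanned 7.69 to 8.54, Col6a2 (collagen VI) 7.51 to 8.02, Col10a1 (short-chain) 6.79 to 7.20, Col13a1 (transmembrane) 7.36 to 7.87 and Col26a1 7.85 to 8.41. In each of these, pools of 1 day covered much of the span, as in Col9a3, where P0 replicates 1 and 2 held its highest and lowest value.

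Col18a1 encodes the chain of collagen XVIII, a basement membrane collagen and the source of endostatin, and was the collagen with the largest estimate. It was 7.67, 8.05 and 8.32 at P4, where 2 pools lay above and 1 lay among the earlier pools at 7.42 to 7.77. P4 minus P0 was 0.42 (95% interval 0.10 to 0.74) and did not pass (limma adjusted p = 0.167), while leaving out single pools moved it from 0.27 without P4 replicate 3 (adjusted p = 0.593) to 0.59 without P4 replicate 1 (adjusted p = 0.0259). In replicates 2 and 3 alone it was 0.62 and passed (limma adjusted p = 0.0478), while in the first replicates it was 0.02. Against the P0 to P3 mean, replicates 2 and 3 alone gave 0.53 (adjusted p = 0.0308).

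The 5 collagens too dim to test, Col19a1, Col28a1, Col6a4, Col8a1 and Col8a2, had values of 6.13 to 7.06. For dim genes a fold can be understated where background remains in the value, and this was not tested.

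**Figure D4:**
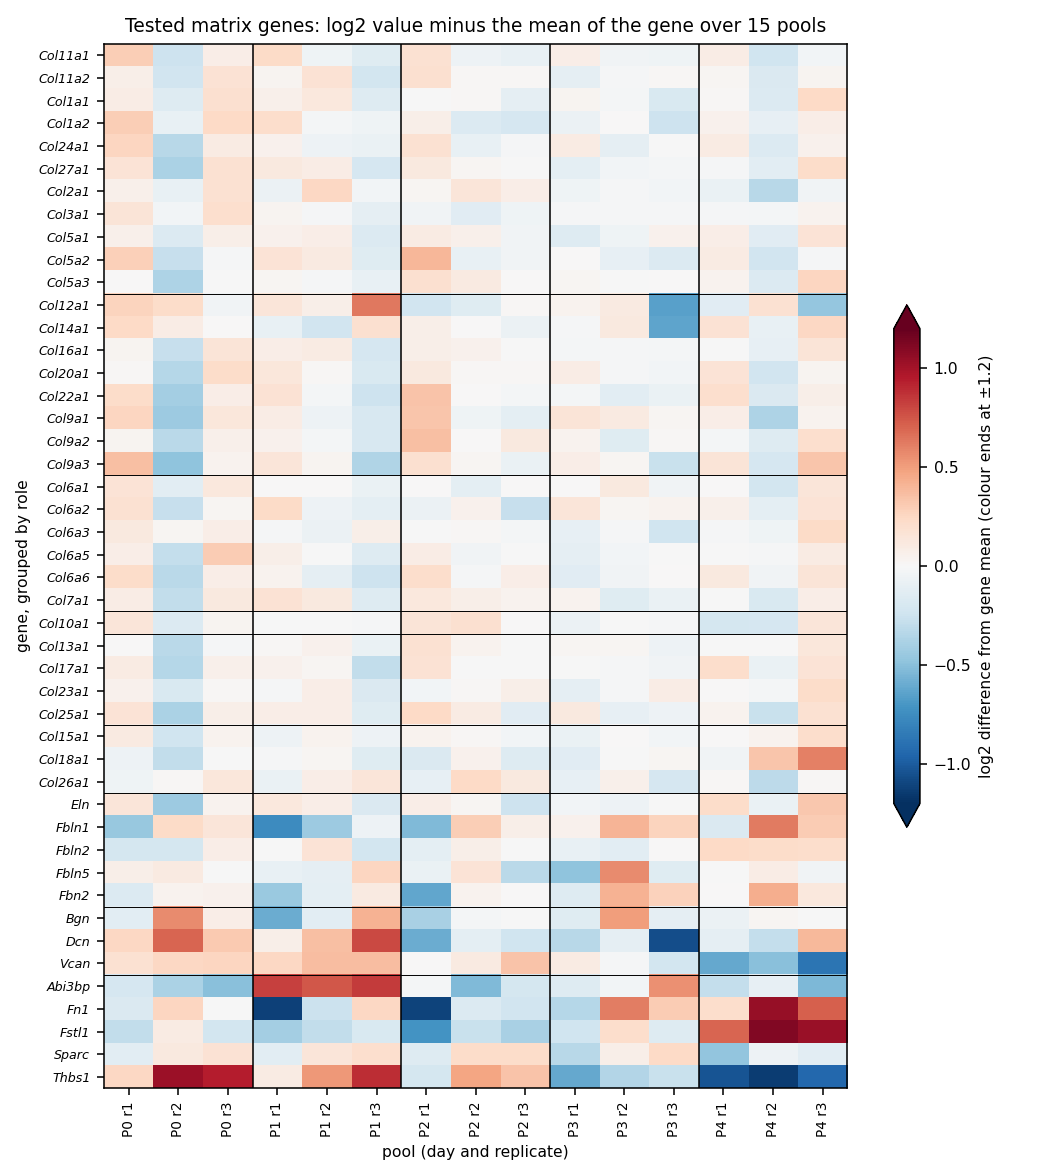
Log2 value minus the gene's mean over 15 pools (colour, ending at 1.2 above and below) for the 46 matrix genes tested (vertical axis, grouped by role) in each pool (horizontal axis, by day and replicate). The collagen block is pale with a low P0 replicate 2, and Fstl1, Thbs1 and Vcan stand out at P4, Dcn at P3 replicate 3 and Abi3bp at P1.

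Counted over all 46 members tested, 4 passed the test of any difference among days (Abi3bp, Fstl1, Thbs1 and Vcan), or 3 without Abi3bp, which was tested only through its P1 pools, where 5.37% of all genes did. In P4 versus P0 it was 3, with Fstl1 higher (3.18% of all genes were called higher) and Thbs1 and Vcan lower (2.45% were called lower), and in the slope it was 2, both lower (1.48% of all genes). In P4 against the P0 to P3 mean 3 passed (5.73% of all genes), in P4 against P3 it was 2 (1.49%), and 1 lay off the P0 to P3 line (1.04%). The 3 P4 pools lay wholly outside the 12 earlier pools for 4 of 46 members, Fbln2 and Fstl1 above and Thbs1 and Vcan below, where 3.78% of all genes did so (2.38% above and 1.4% below). The counts over the matrix genes rest on 1 to 4 genes each and were not tested against these shares. All these calls, from the fit without a block, were among the 13 non-collagens.

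The enzymes that process collagen were read from a list of 32 genes, of which 21 were tested. In P4 versus P0, 1 rose and 2 fell, where 3.18% of all genes tested were called higher and 2.45% lower. P3h2, a prolyl 3-hydroxylase that acts on collagen chains, was 6.96 to 7.54 at P0 and 8.57 to 9.17 at P4 without overlap, a rise of 1.67 on the log2 scale (SE 0.31, limma adjusted p = 0.00376). P4ha1, a catalytic subunit of the prolyl 4-hydroxylase that stabilises the collagen triple helix, went from 8.90 to 9.17 at P0 down to 7.35 to 7.93 at P4 (log2 difference -1.36, SE 0.20, adjusted p = 0.000618). P4ha3, another such subunit, went from 7.54 to 7.86 down to 6.39 to 6.64 (log2 difference -1.21, SE 0.23, adjusted p = 0.00517). The median over the 21 was -0.10, and the other 18 gave no call. Over P0 to P3, P4ha1 alone was called, with a fall of 0.42 per day (adjusted p = 0.00185), where 3.13% of all genes were called. With the replicate block, which called 8.49% of all genes, 4 of the 21 were.

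Of 25 matrix proteases and inhibitors, 12 were tested. In P4 versus P0, 2 rose and 1 fell, where 3.18% of all genes tested were called higher and 2.45% lower. With the replicate block 5 were called, against 11.1% of all genes. Adamts1 and Adamts9 encode secreted proteases known to cleave versican. Adamts9 was 9.72 to 9.83 at P0 and 10.47 to 11.01 at P4 without overlap (log2 difference 1.02, SE 0.19, limma adjusted p = 0.00459). Adamts1 was 7.71 to 8.31 at P0, 7.16 to 7.83 at P3 and 8.44 to 8.96 at P4, with a P4 minus P0 difference of 0.75 (adjusted p = 0.0375). That call was lost without P0 replicate 1 or 3, P1 replicate 2, P2 replicate 2 or 3, or P4 replicate 2 or 3, at an adjusted p of up to 0.165, whereas the rise over the P0 to P3 mean was 1.15 (adjusted p = 0.000282). Mmp16, a membrane-bound metalloprotease, fell by 0.88 from P0 to P4 on the log2 scale (adjusted p = 0.00148).

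TGF-beta drives the transcription of many matrix genes, and of 12 genes for its ligands, receptors and latency proteins 11 were tested. In P4 versus P0, 1 rose and 3 fell, where 3.18% of all genes tested were called higher and 2.45% lower. Tgfbi, which encodes a secreted matrix protein named for its induction by TGF-beta, was 10.06 to 10.45 at P0, 8.36 to 8.96 at P3 and 7.64 to 7.98 at P4, and P4 was 5.77-fold below P0 (log2 difference -2.53, SE 0.21, limma adjusted p = 4.15e-06). The ligands Tgfb2 and Tgfb3 fell by 0.98 and 1.53 on the log2 scale (adjusted p = 0.000485 and 0.000975). All 3 also fell over P0 to P3, by 0.54 per day for Tgfbi, 0.23 for Tgfb2 and 0.46 for Tgfb3 (adjusted p = 0.000437, 0.0119 and 0.00391). In that slope 4 of the 11 were called, 1 higher and 3 lower. Of all genes tested, 1.65% were called higher there and 1.48% lower. Ltbp1, a latent TGF-beta binding protein of the microfibrils, was named after its value was seen. It rose by 0.64 from P0 to P4 (adjusted p = 0.0115), a call lost without P0 replicate 2 or P4 replicate 1, at an adjusted p of up to 0.0609.

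Cells of other kinds that make matrix were followed through further lists. The smooth muscle, mesangial and pericyte list (6 of 8 genes bright enough to test) was 7.08 to 7.27 at P0 and 7.08 to 7.20 at P4. In the endothelial list 1 of 8 genes was bright enough, Pecam1, Cdh5, Kdr, Tek, Tie1, Emcn and Flt1 staying below the limit, and its mean was 6.13 to 6.47 in all pools. The macrophage list had 2 of 8 such genes and a mean of 6.26 to 6.63. The podocyte list, with 1 of 6, was 6.23 to 6.48 at P0 and 6.75 to 6.86 at P4, and the ureteric bud list, with 5 of 8, was 6.63 to 6.91 at P0 and 7.16 to 7.36 at P4. In the podocyte list Podxl and Ptpro were higher at P4 than at P0 without overlap and Nphs1 and Synpo were not, and in the ureteric bud list Gata3 and Krt8 were, while Ret, Wnt9b and Aqp2 overlapped between these days. The part of these genes in the Fstl1 result was not tested.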

How the data were processed

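The authors deposited 1 table of log2 values for 35557 probe sets in 15 samples, which the submitters' processing notes attribute to Affymetrix Expression Console. The sources used here do not give its version, summarization, background correction or genome build. The log2 scale follows from the range of the values, 2.38 to 13.76, and array medians of 6.80 to 6.92. Values were used as deposited. Precision is limited by the 3 arrays of each day.

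Of the probe sets, 21789 had 1 symbol in the platform table, 1621 had several and 12147 were not listed, and only the first were used. The probe set with the highest mean stood for a gene. The test took in 11885 of 19938 genes, those that exceeded log2 6.86, the median of the whole table, on 3 arrays or more. A mean for each day was fitted to all 15 samples with limma 3.58.1 in R 4.3.3, with empirical Bayes moderation and Benjamini-Hochberg adjustment over all genes tested. Tests were two-sided, and an adjusted p under 0.05 was a call. Comparisons share samples, so no overlap between them is given. The fit was tested on simulated data with independent noise in every array. The simulation had no differences between replicate numbers, so it cannot show how the fit behaves with those seen here.

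Members, lists, tests and alternatives were chosen with earlier results of these data known. Members called are named, with values in every sample for the largest called rises and falls, along with the member of highest mean in each role and up to 4 called genes of each pathway list. Fn1, Col12a1, Col18a1, Bgn, Eln, the fibulins and the dim members were singled out after their values were seen.

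Replicate numbers come from the sample titles, a title without a number taken as 1. Deviations from day means of same-numbered samples correlated over 0.1 in 3 of 3 pairs for P4 with P0 and 3 of 3 for P4 with P3. Among P0 to P3 it was 18 of 18, and over all 5 days 29 of 30. The first replicates stood apart on every day, which can give such correlations without pairing, and differently numbered samples were not compared. Whether the numbers pair the samples is therefore not known. The main fit has no block, and the replicate block is given beside it as an alternative. Alternatives were quantile normalization, subtraction of array medians, no filter and a filter of 8 arrays, the mean of a gene's probe sets, the replicate number or the array set (first replicates against the others) as a block, replicates 2 and 3 alone, and each sample left out. Promoter sequences are from RefSeq.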

Additional observations from a re-analysis of the deposited data

How the results depend on the processing

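The 4 calls over any difference among days became 7 with the replicate block and 7 with the array set block. Of all genes tested, 12.5% and 11.7% were called there, against 5.37% without a block. The replicate block added Dcn, Fbln1 and Fn1 (limma adjusted p = 0.0385, 0.0104 and 0.00137). In P4 against the P0 to P3 mean, the 3 calls became 6 with either block and 5 in replicates 2 and 3 alone. The replicate block stands here as an alternative. Among those it added were Fn1 (adjusted p = 0.000760), Sparc (0.0226) and Col18a1 (0.0370), the only collagen called by it, against 12.1% of all genes called with the block and 5.73% without. The replicate block also raised the calls from 3 to 4 for P4 versus P0 by adding Fn1. For P4 versus P3 it raised them from 2 to 3 by adding Thbs1. In these comparisons and the slope over P0 to P3 it changed no other call of a member. The slope over P0 to P3 gave 1 call with array medians subtracted and 1 in replicates 2 and 3 alone, and P4 versus P3 gave 1 in each. Off the P0 to P3 line, 2 members were called with the replicate block (Vcan at adjusted p = 0.0385) and 2 with the array set block. Of all genes tested, 2.81% and 2.64% were called off the line with these blocks, against 1.04% without a block. With each sample left out in turn, calls numbered 0 to 2 for the slope, with 0 where P0 replicate 2 or 3 was left out, 1 to 2 for P4 versus P3, 3 to 4 for P4 versus P0 and for P4 against the P0 to P3 mean, 4 for any difference and 1 for the line. The count for P4 versus P0 was 3 to 4 under every setting run. Of the differences of named members under the alternatives, 381 kept direction and side of the threshold, 18 passed where the reported one had not, 15 no longer passed and 0 reversed. All 115 recomputed medians of the collagen differences moved by less than the typical SD of a single collagen between replicates. That is a wide limit for a median over 33 genes. With each sample left out in turn, the median P4 minus P0 difference ran from -0.12 to 0.10, so its sign depended on single pools. The causes of these changes were not tested. With 3 pools for each day, the widest collagen interval of P4 minus P0 allows differences of up to 0.75 log2 units, and signals near the filter may hold background.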

Other observations

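The collagens shared a variation between pools that did not follow the days. P0 replicate 2 held the lowest value of 23 of the 33 collagens tested and P4 replicate 3 the highest of 9. The median deviation of the 33 from their own means ran from -0.28 in P0 replicate 2 to 0.15 in P4 replicate 3, while that of 6380 other genes of the same range of means stayed between -0.09 and 0.07. P1 replicate 3 and P4 replicate 2 were also low, at -0.14 and -0.16. The other P0 pools lay at 0.11 and 0.08, so the lowest pool and 2 of the higher ones were from the same day. P0 replicate 2 was also the lowest pool of the ureteric bud, podocyte and erythroid marker lists, at 6.63, 6.23 and 6.18. P1 replicate 3 was the lowest of the endothelial and macrophage lists, at 6.13 and 6.26. In the stroma list P0 replicate 2 was the highest, at 8.88. Whether the variation is particular to collagens was not tested.

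P3 replicate 3 was low in several, though not all, genes of interstitial cells. It held the lowest value of 5 collagens, with Col12a1 at 7.03 and Col14a1 at 6.93, and also of Dcn at 6.22. Penk was 8.41 in that pool against 10.23 and 10.50 in the other P3 pools, and Pdgfra was 6.58 against 7.14 and 7.64. Of the 10 genes of the stroma list, 6 were lowest of the P3 pools in this one and 2 were highest, Foxd1 (8.46 against 8.38 and 8.12) and Tbx18. Abi3bp, in contrast, was higher there (7.25) than in the other P3 pools (6.55 and 6.67).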
